A study of Homo sapiens with 6 samples.

Results

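The ATP-binding cassette (ABC) proteins form a large family that couples ATP hydrolysis to work, most often to the movement of a drug, lipid, metal compound or peptide across a membrane. Members were the genes whose symbol is ABCA to ABCG followed by a number, with pseudogenes left out, and 45 of the 27852 listed genes met this rule. Of the 46 symbols that match the pattern, 1 (ABCC13) was left out as a pseudogene. The 45 members fall into 12 ABCA, 9 ABCB, 11 ABCC, 4 ABCD, 1 ABCE, 3 ABCF and 5 ABCG genes.

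H69AR is a multidrug-resistant, nonneuroendocrine line that was derived from the small cell lung cancer line NCI-H69 by long culture in adriamycin (doxorubicin). RNA was sequenced from 3 libraries labelled siTREX1, transfected with siRNA #1 against TREX1, and from 3 siCtrl libraries, transfected with a control siRNA, all collected on day 3 after transfection. TREX1 is a cytoplasmic exonuclease that degrades DNA, and the study asked what its depletion does in resistant cells. The comparison therefore rests on 1 cell line and 1 siRNA, and neither the parental line nor untransfected cells were analysed here. Whether the replicates came from separate cultures is not stated, and the p-values then cover only the differences among these 6 libraries, which can be technical.

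TREX1 itself was at 28.4, 16.1 and 18.5 estimated counts per 1000000 of the library total (CPM) in the libraries labelled siTREX1 replicates 1, 2 and 3, against 22.5, 31.2 and 24.7 CPM in siCtrl replicates 1, 2 and 3. Replicate 1 of the libraries labelled siTREX1 was thus within the siCtrl range, and the change did not pass edgeR's quasi-likelihood test (log2 fold change -0.33, standard error 0.24, adjusted p = 0.349). Without that library the log2 fold change was -0.62 (adjusted p = 0.0499 in edgeR). The TREX1 row rests on 1 listed transcript. The study also compared TREX1 in H69AR cells with this siRNA by qPCR and immunoblotting, and those values were not read here. Higher and lower below always describe the libraries labelled siTREX1 against siCtrl. Library totals were 16329106 to 20902412 estimated counts in siTREX1 and 16417292 to 22482687 in siCtrl. Of the small cell lung cancer markers, NEUROD1, CHGA, NCAM1 and POU2F3 averaged under 0.2 CPM in both groups, while INSM1 averaged 13.2 CPM in siTREX1 and 15.2 CPM in siCtrl, SYP 2.20 CPM in siTREX1 and 2.75 CPM in siCtrl, and YAP1 29.8 CPM in siTREX1 and 27.8 CPM in siCtrl. DLL3 fell, with 19.5 CPM in siTREX1 and 26.1 CPM in siCtrl (adjusted p = 0.00401 in edgeR). The mesenchymal marker VIM averaged 2537 CPM in siTREX1 and 2483 CPM in siCtrl. Of the epithelial markers, EPCAM was under 1 CPM under a transcript marked for nonsense-mediated decay, and CDH1 was listed at 0 under a retained-intron transcript. Of the immune and endothelial markers, CD68 averaged 9.82 CPM in siTREX1 and 7.63 CPM in siCtrl, and PTPRC 1.74 CPM in siTREX1 and 1.91 CPM in siCtrl. CD3E and PECAM1 were under 1 CPM in both groups, PECAM1 under a noncoding transcript. The low rows of EPCAM, CDH1 and PECAM1 thus do not show that these genes were silent.

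A typical ABC transporter has membrane-spanning segments that form the path for its substrate and nucleotide-binding domains that burn ATP. Subfamilies A, B, C, D and G are transporters of this kind, and ABCC1, also called multidrug resistance protein 1 or MRP1, exports glutathione-linked compounds and anticancer drugs such as anthracyclines. MRP1 was cloned from H69AR, in which its gene is known to be amplified. ABCE1 and the ABCF proteins keep the nucleotide-binding domains but have no membrane part, and they act on ribosomes. Levels in CPM are already relative to transcript length, so they can be compared between genes, with the limit that the file lists 1 transcript per gene.

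The family carries the loop that holds the phosphates of ATP, known as the Walker A motif, which was searched as Gly, any 2 residues, Gly, any residue, Gly, Lys and then Ser or Thr. In the longest coding sequence of each gene in GENCODE 29, 31 members held 2 such loops, 13 held 1, and ABCG8 held none that matches. The coding bases of the loops are shown for the most abundant transporter, for a single-loop transporter that fell and for soluble members that rose, each with the codons for the closing Gly-Lys-Ser or Gly-Lys-Thr in capitals.
ABCC1 residues 678 to 685: ggccaggtgggctgcGGAAAGTCG
ABCC1 residues 1327 to 1334: gggcggacgggagctGGGAAGTCG
ABCB6 residues 623 to 630: ggcccatctggggcaGGGAAGAGC
ABCE1 residues 110 to 117: ggaactaatggtattGGAAAGTCA
ABCE1 residues 379 to 386: ggggaaaatggaacgGGTAAAACG
ABCF2 residues 118 to 125: ggtttaaatggaattGGAAAGTCC
ABCF2 residues 430 to 437: gggcccaatggagcaGGGAAGTCA
The ATP-holding loop is thus present in the coding sequence of genes that fell and of genes that rose.

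ABCC1 dominated the family in every library. Its level was 1928, 1927 and 1967 CPM in siTREX1 replicates 1, 2 and 3, against 2449, 2478 and 2550 CPM in siCtrl replicates 1, 2 and 3. The groups did not overlap, and all 3 siTREX1 libraries lay below all 3 siCtrl libraries. The means were 1941 ± 22.7 CPM in siTREX1 and 2492 ± 51.9 CPM in siCtrl (SD, n = 3 each), and in siCtrl ABCC1 ranked 53 among all listed genes. ABCC1 fell by 23.1% (log2 fold change -0.38, standard error 0.02, adjusted p = 0.000126 in edgeR). At its lower level it still exceeded the next member, ABCE1, by 11.7 times in siTREX1, against 17.2 times in siCtrl.

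Summed over all 45 members, the family held 2657, 2661 and 2711 CPM in siTREX1, against 3169, 3201 and 3294 CPM in siCtrl. ABCC1 alone made up 72.6, 72.4 and 72.6% of that sum in siTREX1 and 77.3, 77.4 and 77.4% in siCtrl. The other 44 members together held 735 ± 7.81 CPM in siTREX1 and 729 ± 12.9 CPM in siCtrl (SD, n = 3 each), and those ranges overlapped. Within these 44, the ABCE and ABCF genes summed to 390.4 ± 10.9 CPM in siTREX1 and 327 ± 5.02 CPM in siCtrl, and the remaining transporters to 345 ± 3.11 CPM in siTREX1 and 402 ± 10.3 CPM in siCtrl. The sums without ABCC1 thus held a soluble share that was higher and a transporter share that was lower in siTREX1.

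**Figure D1:**
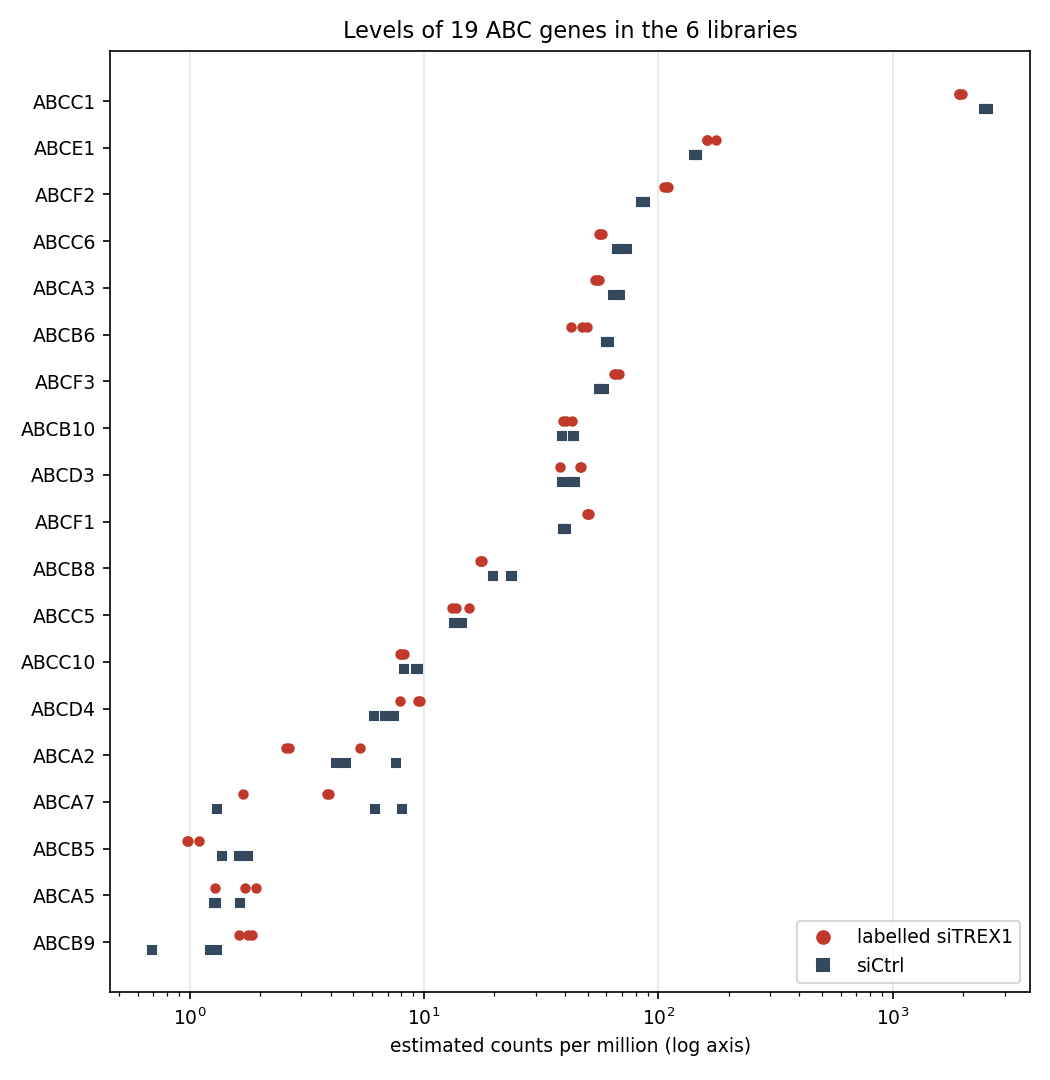
Levels of 19 of the 21 members that averaged at least 1 CPM, a row per gene in order of the siCtrl mean, with levels in CPM on a log axis. Circles are the 3 libraries labelled siTREX1 and squares the 3 siCtrl libraries; ABCC1 stands apart at 1927 to 1967 CPM in siTREX1 and 2449 to 2550 CPM in siCtrl.

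Of the 45 members, 21 averaged at least 1 CPM over the 6 libraries and 24 were lower, of which 8 (ABCA4, ABCA6, ABCA8, ABCB1, ABCB11, ABCC8, ABCC12 and ABCG2) were listed at 0 in all 6 libraries. The filter on low counts, which also depends on the group in which a gene is high, left 22 members for the test. Of these, 4 were called higher, 7 lower and 11 were not called at an adjusted p under 0.05 in edgeR. Over all 13221 genes tested, 33.3% were called, 17.8% higher and 15.5% lower. The count of members called higher is close to that background, and the count called lower is above it. The 22 members had a median log2 fold change of -0.12, beside -0.02 for all genes tested. By subfamily, 1 of 5 tested ABCA genes and 2 of 4 ABCC genes were lower and 0 were higher. The 1 ABCE gene and all 3 ABCF genes were higher, and no ABCG gene passed the filter. The RNA came from whole cultures, in which fewer cells of a type and less RNA per cell cannot be told apart.

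**Figure D2:**
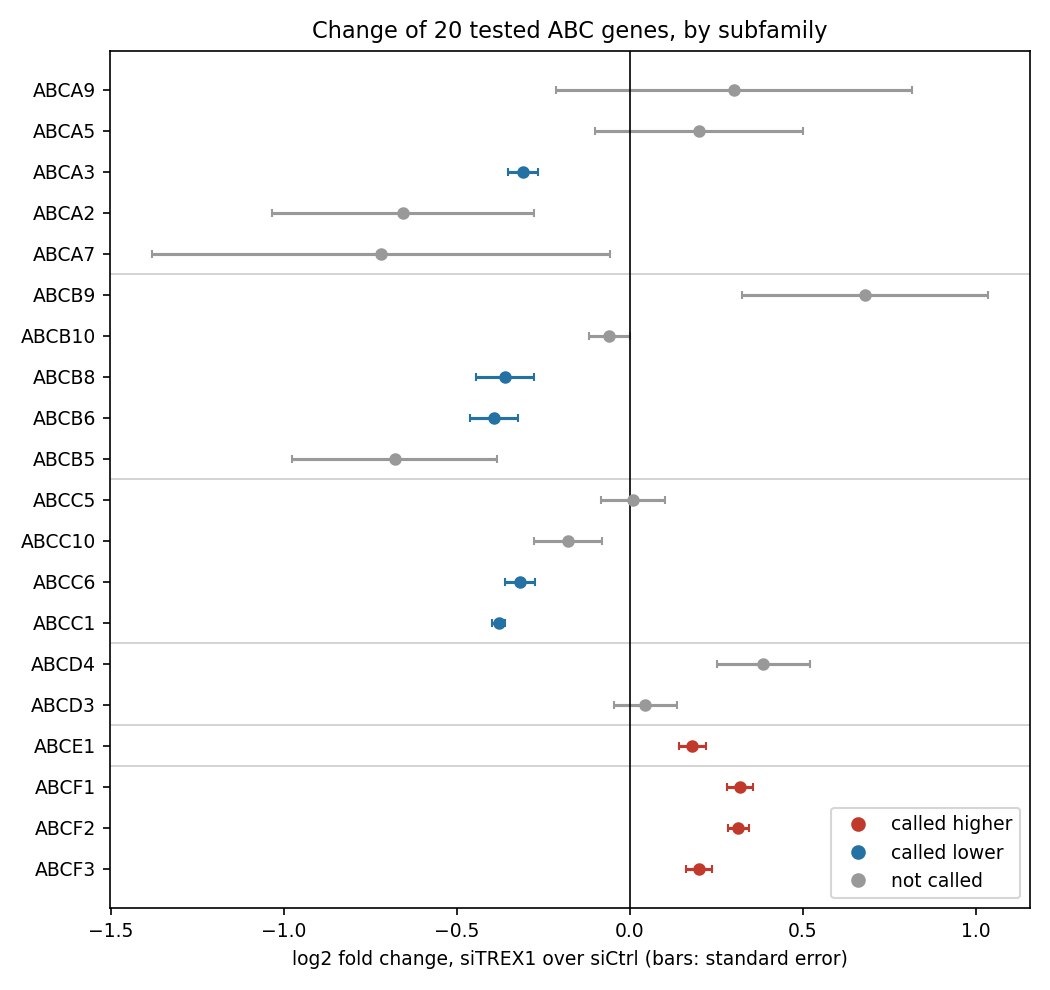
Log2 fold changes of 20 of the 22 tested members, libraries labelled siTREX1 over siCtrl, grouped by subfamily from ABCA at the top to ABCF at the bottom, with bars for the standard error from edgeR. Red points were called higher (4), blue points lower (5) and grey points were not called (11).

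The other ABCC genes include several drug exporters. ABCC6, an exporter of liver and kidney that governs the release of ATP from cells, was listed at 56.6, 56.1 and 57.5 CPM in siTREX1, against 66.5, 69.4 and 73.4 CPM in siCtrl. It fell in edgeR (log2 fold change -0.32, standard error 0.04, adjusted p = 0.00302), with no overlap between the groups. Its listed transcript is only 714 nt long, holds 6.59% of the gene's longest coding sequence and no Walker A loop, and shares 87.0% of its 31-base words with transcripts of other genes, 81.9% with the pseudogene ABCC6P1. ABCC6P1 was listed at 12.3, 8.77 and 9.86 CPM in siTREX1, against 16.1, 15.7 and 17.9 CPM in siCtrl (log2 fold change -0.70, standard error 0.14, adjusted p = 0.0116 in edgeR). The value under ABCC6 is thus uncertain as a measure of the full transporter.

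ABCC5, which exports cyclic nucleotides and nucleotide analogues, and ABCC10, a drug exporter, were measured from transcripts with the gene's whole coding sequence. ABCC5 was at 15.6, 13.2 and 13.7 CPM in siTREX1, against 14.6, 13.7 and 13.5 CPM in siCtrl (log2 fold change 0.01, standard error 0.09, adjusted p = 0.954 in edgeR). ABCC10 was at 8.22, 7.99 and 7.91 CPM in siTREX1, against 8.26, 9.46 and 9.27 CPM in siCtrl (log2 fold change -0.18, standard error 0.10, adjusted p = 0.216 in edgeR). Neither passed the test, although ABCC10 was lower in each siTREX1 library than in each siCtrl library.

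The remaining transporters with a known part in drug efflux were at or near 0. ABCG2, the breast cancer resistance protein, was listed at 0 in all 6 libraries under a transcript that holds its whole coding sequence. ABCB1, or P-glycoprotein, was also listed at 0 in all 6, but under a retained-intron transcript of 539 nt with no coding sequence, so its protein-coding transcripts were not measured by this row. ABCC4 had 7.02 estimated counts in siTREX1 replicate 2 and 0 in the other 5 libraries, and its listed transcript is a retained-intron form of 357 nt. ABCC2 had 2.52 estimated counts in siCtrl replicate 3 and 0 elsewhere, under a noncoding transcript of 525 nt. ABCC3 had 2.41, 4.13 and 1.21 estimated counts in siTREX1 and 0, 0 and 4.64 in siCtrl, under a transcript marked for nonsense-mediated decay that carries 81.1% of the longest coding sequence. The study reports ABCC3 and ABCC6 as upregulated in H69AR against H69, a comparison that these libraries do not hold. ABCC11, listed under a retained-intron transcript, had 1.08, 0.510 and 0.497 estimated counts in siTREX1 and 1.96, 2.32 and 1.48 in siCtrl. Such low rows can hold absent transcripts as well as genes whose main transcript is not the listed one. ABCA10, ABCA12, ABCA13 and ABCC9 had at most 5.44 estimated counts in a library. Of the 23 members that were not tested, 13 are listed under a transcript that is not protein coding, and the highest value of any of the 23 in a library was 14.7 estimated counts (ABCB4 in siCtrl replicate 3).

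ABCC1 lies on the plus strand of chromosome 16 (chr16:15949577-16143074, GRCh38), and its listed transcript of 6552 nt holds the whole coding sequence and shares 0% of its 31-base words with transcripts of other genes. The 15 other listed protein-coding genes within 1 Mb of it were read beside it, a window chosen after the values were seen. CEP20, a centrosomal protein gene, was at 3171 ± 161 CPM in siTREX1 and 2654 ± 34.2 CPM in siCtrl (SD, n = 3 each) and ranked 49 among all listed genes in siCtrl. NOMO3, of a family of endoplasmic reticulum membrane proteins, was at 1086 ± 4.94 CPM in siTREX1 and 1037 ± 16.8 CPM in siCtrl and ranked 141, but 92.6% of its 31-base words are also in NOMO2, so its source is uncertain. XYLT1, a xylosyltransferase of proteoglycan synthesis, was at 283 ± 5.36 CPM in siTREX1 and 353 ± 5.01 CPM in siCtrl and ranked 388. The median over all tested genes was 16.4 CPM in siCtrl. High levels were thus not shared by all listed rows of the window. MPV17L averaged 2.14 CPM in siTREX1 and 2.67 CPM in siCtrl, and BMERB1 0.326 CPM in siTREX1 and 0.688 CPM in siCtrl. MYH11 averaged 0.696 CPM in siTREX1 and 0.398 CPM in siCtrl, but under a retained-intron transcript. Its protein-coding transcripts were thus not measured by this row. DNA copy number was not measured in these files.

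The abundant genes of this window did not move together. XYLT1 fell as ABCC1 did (log2 fold change -0.33, standard error 0.02, adjusted p = 0.000268 in edgeR), whereas CEP20 rose (log2 fold change 0.24, standard error 0.03, adjusted p = 0.00318 in edgeR). NOMO3 did not pass the test (log2 fold change 0.05, standard error 0.02, adjusted p = 0.0934 in edgeR). Further neighbours of lower level rose, RRN3, a factor of RNA polymerase I (log2 fold change 0.61, standard error 0.07, adjusted p = 0.00153 in edgeR) and NDE1, a centrosomal and dynein regulator (log2 fold change 0.34, standard error 0.06, adjusted p = 0.00538 in edgeR). ABCC6, the next listed gene after ABCC1, fell (log2 fold change -0.32, standard error 0.04, adjusted p = 0.00302 in edgeR). The limits of the ABCC6 row given above hold here too. Within each library, which removes any scaling between libraries, the ratio of ABCC1 to CEP20 was 0.628, 0.624 and 0.586 in siTREX1, against 0.913, 0.947 and 0.957 in siCtrl. The ratio of ABCC1 to NOMO3 was 1.78, 1.78 and 1.802 in siTREX1, against 2.41, 2.38 and 2.43 in siCtrl. The ratio of ABCC1 to XYLT1 was 6.95, 6.77 and 6.83 in siTREX1, against 7.03, 7.05 and 7.12 in siCtrl. The ABCC1 transcript was thus lower in siTREX1 also relative to NOMO3 and to CEP20, which itself rose. Relative to XYLT1, which fell, it was close to its siCtrl ratio. The ratios follow from the changes given above and add no separate result.

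**Figure D3:**
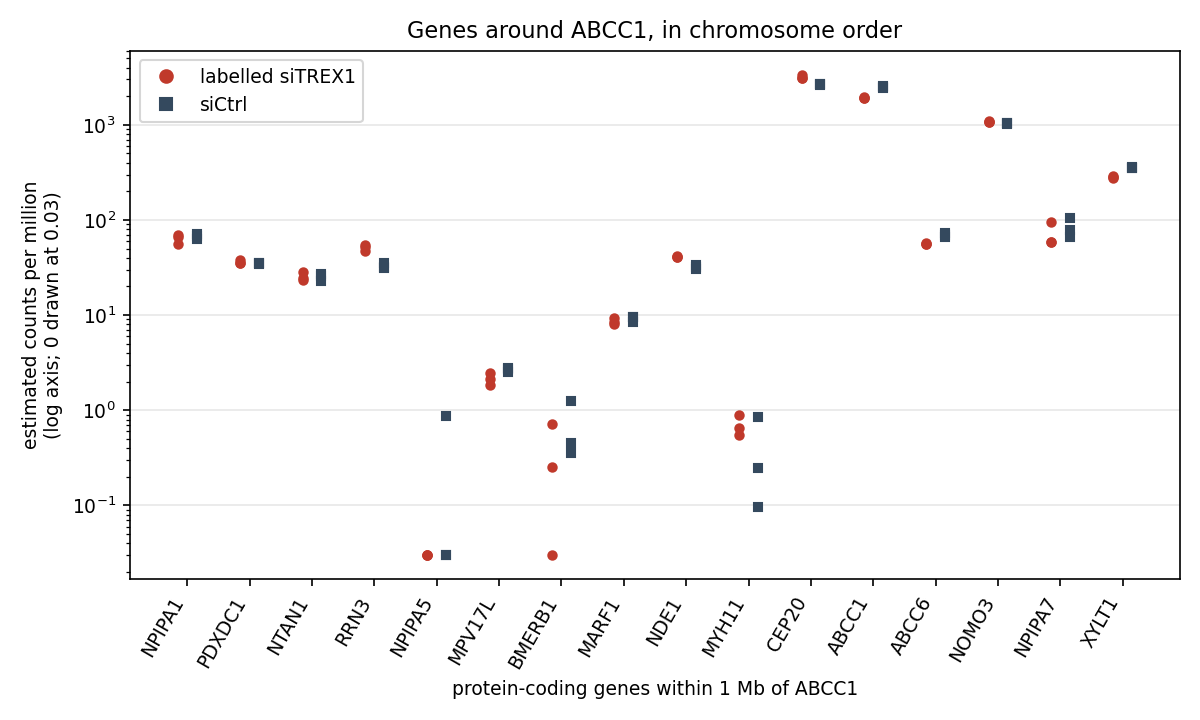
Levels of ABCC1 and the 15 other listed protein-coding genes within 1 Mb of it, in chromosome order, with levels in CPM on a log axis and values of 0 drawn at 0.03. Circles are the 3 libraries labelled siTREX1 and squares, to their right, the 3 siCtrl libraries; ABCC1 lies between CEP20 and NOMO3 in level, and ABCC1 is lower while CEP20 is higher in siTREX1.

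The ABCB genes that were measured at 10 CPM or more encode single-loop transporters of organelles, chiefly mitochondria. ABCB6, a porphyrin-linked transporter, was at 49.9, 47.3 and 42.4 CPM in siTREX1, against 59.7, 61.9 and 59.7 CPM in siCtrl. It fell without overlap between the groups (log2 fold change -0.39, standard error 0.07, adjusted p = 0.00713 in edgeR), although 92.1% of its 31-base words are shared with the overlapping gene AC068946.2. ABCB8, a mitochondrial transporter linked to iron export, was at 17.4, 17.7 and 17.6 CPM in siTREX1, against 19.8, 23.8 and 23.5 CPM in siCtrl. It was called lower (log2 fold change -0.36, standard error 0.08, adjusted p = 0.0201 in edgeR), and the call ended when any library other than siCtrl replicate 1 was left out (adjusted p = 0.0561 to 0.0714 in edgeR). Its listed transcript holds 58.6% of the longest coding sequence and no Walker A loop.

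ABCB10, a mitochondrial inner membrane transporter of red cell precursors and many other cells, was at 40.2, 39.4 and 42.8 CPM in siTREX1, against 43.8, 38.9 and 43.1 CPM in siCtrl, and these ranges overlapped (log2 fold change -0.06, standard error 0.06, adjusted p = 0.498 in edgeR). The remaining tested ABCB genes were near 1 CPM. ABCB5, known from melanoma-initiating cells, was at 1.10, 0.975 and 0.982 CPM in siTREX1, against 1.63, 1.38 and 1.77 CPM in siCtrl, and did not pass the test (log2 fold change -0.68, standard error 0.30, adjusted p = 0.130 in edgeR). ABCB9, the lysosomal peptide transporter, was at 1.78, 1.85 and 1.62 CPM in siTREX1, against 1.22, 0.693 and 1.31 CPM in siCtrl (log2 fold change 0.68, standard error 0.36, adjusted p = 0.196 in edgeR), with 45.2% of its words shared with AC026362.1. The family members that carry other symbols did not pass the test either. TAP1 and TAP2, the antigen peptide transporter subunits of this subfamily, were at -0.47 (log2 fold change, standard error 0.15, adjusted p = 0.0611 in edgeR) and -0.35 (log2 fold change, standard error 0.15, adjusted p = 0.134 in edgeR, and 0.0422 without siCtrl replicate 1), and CFTR, the chloride channel of the ABCC subfamily, 0.14 (standard error 1.15, adjusted p = 0.937 in edgeR).

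The ABCD genes encode peroxisomal and lysosomal transporters. ABCD3, the abundant peroxisomal membrane protein PMP70, was at 38.1, 47.0 and 46.3 CPM in siTREX1, against 42.6, 38.9 and 44.0 CPM in siCtrl, with overlapping ranges (log2 fold change 0.04, standard error 0.09, adjusted p = 0.746 in edgeR). ABCD4, which takes part in lysosomal cobalamin export, was at 9.40, 9.67 and 7.90 CPM in siTREX1, against 6.84, 7.44 and 6.10 CPM in siCtrl (log2 fold change 0.39, standard error 0.13, adjusted p = 0.0723 in edgeR). Its groups did not overlap, but its listed transcript is marked for nonsense-mediated decay and carries 9.24% of the longest coding sequence, and without siTREX1 replicate 3 the adjusted p was 0.0478 in edgeR. ABCD2 was under 1 CPM.

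Among the lipid transporters of the ABCA subfamily, ABCA3 stood far above the rest. ABCA3, which loads phospholipid into the lamellar bodies of alveolar type II cells, was at 56.1, 53.9 and 54.7 CPM in siTREX1, against 68.9, 68.2 and 64.3 CPM in siCtrl. It fell, with no overlap between the groups (log2 fold change -0.31, standard error 0.04, adjusted p = 0.00348 in edgeR). With a trend on the GC content of transcripts removed, the log2 fold change was -0.19 (adjusted p = 0.0223 in edgeR). ABCA2, a lipid transporter of late endosomes, was at 2.58, 5.35 and 2.66 CPM in siTREX1, against 4.22, 4.65 and 7.59 CPM in siCtrl (log2 fold change -0.66, standard error 0.38, adjusted p = 0.237 in edgeR). ABCA7, a phospholipid transporter, was at 3.84, 3.95 and 1.69 CPM in siTREX1, against 1.31, 8.04 and 6.19 CPM in siCtrl (log2 fold change -0.72, standard error 0.66, adjusted p = 0.455 in edgeR). Both spread widely within each group and overlapped. ABCA5 averaged 1.64 CPM in siTREX1 and 1.41 CPM in siCtrl, and ABCA9 0.917 CPM in siTREX1 and 0.725 CPM in siCtrl, and neither passed the test (adjusted p = 0.652 and 0.695 in edgeR). The cholesterol exporter ABCA1 had at most 0.425 estimated counts in a library under a transcript with its whole coding sequence. The 5 ABCG genes, among them the sterol transporters ABCG1, ABCG5 and ABCG8, summed to at most 0.357 CPM in a library. However, ABCG1 and ABCG5 are listed under retained-intron transcripts with no coding sequence, so these rows did not measure their protein-coding transcripts. The listed transcript of ABCG4 carries 23.5% of its longest coding sequence.

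The 4 soluble members rose together. ABCE1, which splits ribosomes after termination and is needed for the next round of translation, was at 161, 161 and 176 CPM in siTREX1, against 146, 142 and 146 CPM in siCtrl. It rose (log2 fold change 0.18, standard error 0.04, adjusted p = 0.0132 in edgeR), and without siCtrl replicate 2 it sat at the threshold (log2 fold change 0.17, adjusted p = 0.0502 in edgeR). With the GC trend removed its log2 fold change was 0.10 (adjusted p = 0.0112 in edgeR). ABCF1, which promotes translation initiation through eIF2, was at 49.9, 50.5 and 49.7 CPM in siTREX1, against 40.4, 39.1 and 39.3 CPM in siCtrl (log2 fold change 0.32, standard error 0.04, adjusted p = 0.00192 in edgeR). The replicates of ABCF1 differed by less than 2 CPM in both groups. ABCF2, a ribosome-linked ATPase whose role is less well known, was at 105.5, 109.7 and 108.7 CPM in siTREX1, against 85.7, 84.2 and 87.4 CPM in siCtrl (log2 fold change 0.31, standard error 0.03, adjusted p = 0.000948 in edgeR). ABCF3, a further ribosome-linked member, was at 64.5, 66.1 and 68.0 CPM in siTREX1, against 55.6, 56.2 and 58.9 CPM in siCtrl (log2 fold change 0.20, standard error 0.04, adjusted p = 0.00973 in edgeR). In each of the 4 genes every siTREX1 library lay above every siCtrl library. Such separation was not particular to them, since 15 of the 22 tested members had groups that did not overlap. The share over all genes was not counted.

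Some of these rows share sequence with other genes. ABCF2 shares 57.4% of its 31-base words with other genes, most with the read-through gene ABCF2-H2BE1, which was itself at 21.8, 23.9 and 21.9 CPM in siTREX1, against 16.4, 13.9 and 11.7 CPM in siCtrl (log2 fold change 0.67, standard error 0.13, adjusted p = 0.0107 in edgeR). ABCE1 shares 36.5% of its words, and ABCF3 shares 0%. The listed transcript of ABCF1 is not in GENCODE 29, so its sequence was not compared.

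The 4 genes that rose were also looked at for shared letters before their starts. In the 250 bases before the RefSeq start (GRCh38.p14), 35 of the 45 members were matched, and ABCC1 was not among them. The GC box GGGCGG, searched on both strands, was in 18 of the 35, in 3 of the 4 genes that rose and in 3 of the 4 matched genes that fell, against 42.3% of 27305 promoters. The ETS letters CCGGAAG were in 4 of the 35 against 8.82% of all promoters, and of the genes that rose in ABCF1 only. The E-box CACGTG was in 4 of the 35 against 6.49% of all promoters, in 1 of the 4 genes that rose (ABCF1) and in 1 of the 4 matched genes that fell (ABCB6). No motif was thus held by all 4 genes that rose. The stretches of ABCF1 and ABCF2, the largest rises among the 4, are given up to the first base of the gene in GENCODE 29, with the E-box or GC box in capitals. They are chr6:30571192-30571375 on the plus strand and chr7:151227231-151227455 on the minus strand. The GC box and the ETS letters of ABCF1, counted within its 250 bases, lie after the end of its printed stretch.
ABCF1: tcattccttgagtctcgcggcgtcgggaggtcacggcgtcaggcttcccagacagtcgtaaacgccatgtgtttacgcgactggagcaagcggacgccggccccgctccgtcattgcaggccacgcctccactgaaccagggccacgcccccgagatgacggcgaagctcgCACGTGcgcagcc
ABCF2: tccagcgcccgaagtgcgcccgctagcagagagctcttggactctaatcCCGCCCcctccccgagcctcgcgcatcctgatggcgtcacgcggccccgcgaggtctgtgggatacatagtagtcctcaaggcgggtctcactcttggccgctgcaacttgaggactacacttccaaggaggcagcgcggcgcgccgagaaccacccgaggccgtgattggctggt

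The membrane part that sets ABCE and ABCF apart from the other subfamilies was read from the coding sequences. Hydrophobic stretches, counted as windows of 19 residues with a mean Kyte-Doolittle value of at least 1.6, were 0 in the products of ABCE1, ABCF1, ABCF2 and ABCF3 and 1 to 15 in those of the other 41 members. Of the 4 tested members with 0 stretches, 4 were higher and 0 lower. Of the 18 tested members with at least 1 stretch, 7 were lower, 0 were higher and 11 were not called by edgeR, beside 17.8% higher and 15.5% lower over all genes tested. This split is the same as that between ABCE with ABCF and the other subfamilies, and adds no separate result. The 4 soluble members had a median log2 fold change of 0.26 and the 18 transporters of -0.29, beside -0.02 for all genes tested. ABCB8, with 5 stretches, and ABCC1, with 14, were both lower. The division was noticed with the values in view and was given no test of its own.

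**Figure D4:**
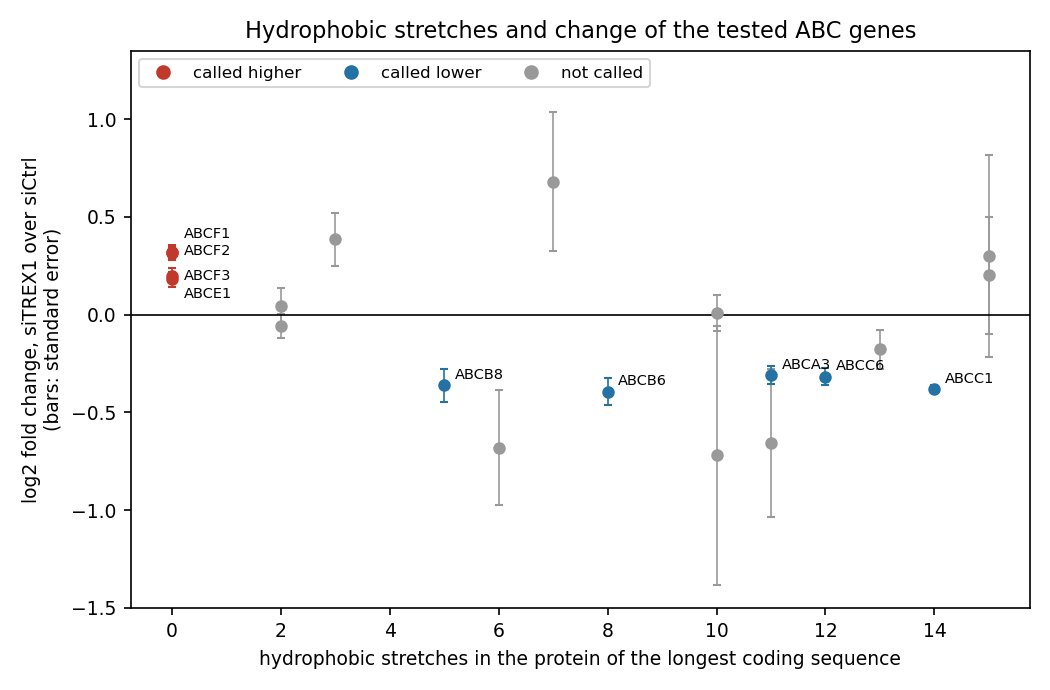
Log2 fold change of 20 of the 22 tested members, libraries labelled siTREX1 over siCtrl, against the number of hydrophobic stretches in the product of each gene's longest coding sequence; bars are standard errors from edgeR. The 4 members with 0 stretches lie above 0 (red), and the 5 drawn that were called lower (blue) have 5 to 14 stretches.

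Genes that work with the transporters were counted from lists, each from the same edgeR fit. Of 12 tested partners in drug uptake and efflux, 2 were higher, 3 lower and 7 did not pass, with a median log2 fold change of -0.25. The nucleoside importer SLC29A2 averaged 34.5 CPM in siTREX1 and 59.8 CPM in siCtrl (log2 fold change -0.81, standard error 0.09, adjusted p = 0.00158 in edgeR), and the copper ATPase ATP7B had a log2 fold change of -0.85 (adjusted p = 0.0269 in edgeR). The call of ATP7B ended without any 1 library other than siTREX1 replicate 3 (adjusted p = 0.0710 to 0.0845 in edgeR). Of 18 tested genes of glutathione synthesis and conjugation, which supply substrates of ABCC1, 2 were higher, 2 lower and 14 did not pass, with a median of -0.06. The cystine importer subunit SLC7A11 averaged 10.6 CPM in siTREX1 and 5.78 CPM in siCtrl (log2 fold change 0.86, standard error 0.10, adjusted p = 0.00178 in edgeR), GCLM, a subunit of the enzyme that limits glutathione synthesis, rose with a log2 fold change of 0.36 (adjusted p = 0.00915 in edgeR), and GSTO1, a glutathione transferase, fell by 0.20 on the log2 scale (adjusted p = 0.00312 in edgeR).

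Of 21 tested regulators of ABC transcription, 5 were higher, 3 lower and 13 did not pass, with a median log2 fold change of 0.02. NFE2L2, the antioxidant factor NRF2, which is known to act on ABCC1, averaged 105 ± 4.04 CPM in siTREX1 and 66.7 ± 2.43 CPM in siCtrl (log2 fold change 0.64, standard error 0.04, adjusted p = 0.000258 in edgeR). Its inhibitor KEAP1 averaged 127 ± 2.11 CPM in siTREX1 and 79.0 ± 4.42 CPM in siCtrl (log2 fold change 0.66, standard error 0.05, adjusted p = 0.000328 in edgeR). CTCF, a chromatin insulator factor, averaged 94.8 ± 1.43 CPM in siTREX1 and 60.2 ± 1.21 CPM in siCtrl (log2 fold change 0.64, standard error 0.03, adjusted p = 0.000122 in edgeR). Transcripts of the activator and of its inhibitor were thus both higher, while that of ABCC1 was lower.

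Of 17 tested genes of cholesterol handling, the pathway of the ABCA and ABCG exporters, 1 was higher, 5 lower and 11 did not pass, with a median of -0.14. INSIG1, the sterol-sensing retention protein, averaged 149.7 CPM in siTREX1 and 273 CPM in siCtrl (log2 fold change -0.88, standard error 0.03, adjusted p = 2.6e-05 in edgeR). CAV1, caveolin, rose (log2 fold change 0.48, adjusted p = 0.000796 in edgeR). Of 19 tested peroxisome genes, 2 were higher, 5 lower and 12 did not pass, with a median of -0.14, among them catalase, CAT, with -0.29 (adjusted p = 0.0011 in edgeR). Of 20 tested genes of iron-sulfur and heme synthesis, the pathways of ABCB6 and ABCB8, 4 were higher, 1 lower and 15 did not pass, with a median of 0.03. NUBP1, a scaffold of cytosolic iron-sulfur assembly, rose (log2 fold change 0.48, adjusted p = 0.000617 in edgeR), as did the mitochondrial chaperone HSPA9 (0.21, adjusted p = 0.000867 in edgeR), and ISCA2 fell by 0.47 on the log2 scale (adjusted p = 0.00242 in edgeR).

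Of 14 tested partners of ABCE1 and ABCF1 in translation, 4 were higher, 1 lower and 9 did not pass, with a median log2 fold change of -0.01. The release factor ETF1, which hands terminated ribosomes to ABCE1, averaged 115 ± 3.93 CPM in siTREX1 and 88.3 ± 2.72 CPM in siCtrl (log2 fold change 0.36, standard error 0.04, adjusted p = 0.00103 in edgeR). EIF3J, an initiation factor linked to ribosome recycling, averaged 122 ± 3.14 CPM in siTREX1 and 92.9 ± 0.764 CPM in siCtrl (log2 fold change 0.38, standard error 0.03, adjusted p = 0.000705 in edgeR). The eIF2 kinase EIF2AK4 fell by 0.24 on the log2 scale (adjusted p = 0.0177 in edgeR), and without siTREX1 replicate 1 or 2 its call ended (adjusted p = 0.0565 and 0.0564 in edgeR). Of the 2 potassium channel subunits that pair with ABCC8 and ABCC9, KCNJ11 averaged 0.921 CPM in siTREX1 and 4.76 CPM in siCtrl (log2 fold change -2.38, standard error 0.54, adjusted p = 0.0182 in edgeR), a call that ended without siTREX1 replicate 1 or siCtrl replicate 1 or 2 (adjusted p = 0.0509 to 0.0641 in edgeR). Over all lists, with each gene counted once, 20 of 126 tested genes were higher and 21 lower, with a median of -0.05, and both shares lie near those of all genes tested.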

How the data were processed

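RNA from H69AR cells was sequenced by the authors as paired-end reads from strand-marking libraries, and transcript levels were estimated with kallisto and summarised with the tximport package. The deposited values are estimated counts of the scaledTPM type for 1 transcript per gene symbol, scaled to each library's depth, with transcript length taken out, and are no read numbers. FastQC and the build hg19 also stand in the submitters' processing notes. The transcript annotation is not given in the sources used here. A line without a symbol held 0.0925 to 0.109% of each library and was left out.

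Rounded estimated counts entered the robust quasi-likelihood test of edgeR 4.0.16 (R 4.3.3), with TMM factors, filterByExpr (minimum count 10) and Benjamini-Hochberg adjustment over 13221 genes. A call needed an adjusted p under 0.05, and the common dispersion came to 0.0356. Levels (CPM) are estimated counts per 1000000 of the total over named genes. Alternatives were DESeq2 1.42.0, limma 3.58.1 (voom), other scalings and filters, the replicate number as a block, a GC trend removed and each library left out.

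Transcript types, lengths and coordinates were those of GENCODE 29 (GRCh38), in which 99.3% of the listed transcripts were found, and promoters from RefSeq on GRCh38.p14. No coordinates were converted. Members with a mean of at least 1 CPM, those called and those with a known part in drug efflux were given values, and of each list the called genes with the 3 lowest p-values were named. Some of these genes are not reported here, though counts include them. The members and lists were chosen with earlier results of these data known. With estimated counts no counting interval is given, and 3 libraries per group limit the precision.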

Additional observations from a re-analysis of the deposited data

How the results depend on the processing

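All changes refer to the libraries labelled siTREX1 over siCtrl. The members called numbered 3 to 5 higher and 5 to 8 lower over all 14 alternatives, beside 4 and 7. ABCC1 had log2 fold changes of -0.39 to -0.35 in all of them, with an adjusted p of at most 0.0054 in edgeR and the other tools, and ABCA3, ABCB6, ABCC6, ABCF1, ABCF2 and ABCF3 kept their calls in each alternative that gave a value (ABCF1 had none with the GC trend removed). With the GC trend removed, ABCB8 had an adjusted p of 0.0510 and ABCD4 of 0.0472 in edgeR. With at least 10 counts in all libraries ABCB5 reached 0.0335 in edgeR, TAP1 reached 0.0403 in DESeq2, and TAP2 reached 0.0422 in edgeR without siCtrl replicate 1. Over the left-out libraries the log2 fold change of TREX1 ran from -0.62 to -0.16. The order of all 45 members by level was the same with TMM factors.

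Signs turned only in genes that were not called. Over the left-out libraries ABCA9 ran from -0.088 to 0.64, ABCC5 from -0.070 to 0.061, ABCD3 from -0.0088 to 0.14 and CFTR from -0.42 to 0.72, with negative values for ABCA9 without siTREX1 replicate 1, for ABCC5 without siTREX1 replicate 1 or siCtrl replicate 3, for ABCD3 without siTREX1 replicate 2 or siCtrl replicate 2, and for CFTR without siTREX1 replicate 1 or 2 or siCtrl replicate 1. With the GC trend removed ABCC5 was at -0.017 and ABCD3 at -0.029, and CFTR was at -1.37 in limma-voom and -0.43 with the replicate block. The cause was not tested.

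Whether libraries with the same replicate number were paired is not stated. Same-numbered libraries deviated together with small correlations of 0.0183, 0.0261 and 0.0244, although each library correlated best with its own number. These correlations cannot decide whether the libraries were paired. With the replicate number as a block, 4 members were higher and 6 lower (1901 and 1518 over all genes), and the call of ATP7B ended (adjusted p = 0.0656 in edgeR). Levels rest on 1 listed transcript per gene, so a shift between transcripts of a gene cannot be told apart from a change of the gene.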

Other observations

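Among the listed regulators, MYC was chosen after its values were seen. The row listed for it held 61.6, 78.6 and 67.8 estimated counts in the libraries labelled siTREX1, against 2.77, 0 and 7.27 in siCtrl, and the adjusted p was 0.00784 in edgeR. The pseudogene transcript ABCC6P2 was listed at 1.178, 0.937 and 0.234 CPM in siTREX1 and 0.148, 0.215 and 0.960 CPM in siCtrl, with overlapping ranges (adjusted p = 0.550 in edgeR). ABCA17P, a pseudogene related to ABCA3, was listed at 2.73, 0.593 and 2.27 CPM in siTREX1 and 3.14, 2.69 and 3.03 CPM in siCtrl (adjusted p = 0.369 in edgeR).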
